A study of Mus musculus with 14 samples.

Results

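Tumours of the resistant melanoma subline Res 177 were compared with control tumours on 2 array designs that had no tumour in common. The 7 tumours were chosen by their subline label, out of 14 in the series: on the larger design 1 Res 177 tumour stood against 4 control tumours, and on the smaller design 1 Res 177 tumour stood against 1 control tumour. The other 7 tumours came from a second resistant subline, Res 499, and were on the larger design only. The designs are called the 12-array and the 2-array design after their number of arrays. Differences were taken within each design, and symbols were used to pair genes across them, so no level on one was set against a level on the other.

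All tumours grew from B16-F10, a pigmented mouse melanoma line, in C57BL/6 mice. Per the labels, cells in Matrigel were injected under the skin of both flanks, the tumour on the right received a radiation dose of 20 Gy on day 8, and the mice received the CTLA4-blocking antibody 9H10 on day 5, day 8 and day 11. Resistant sublines were isolated from unirradiated tumours that resisted or relapsed after this combination, and the tumours measured here grew after the cells were implanted again. The labels call Res 177 resistant and control sensitive to radiotherapy with anti-CTLA4. They give no age or sex of the mice, do not say whether the measured tumours had themselves been treated, and do not state that tumours came from separate mice, so the spread between control tumours, and every p-value that rests on it, may in part be technical. Each subline is a single line, and Res 177 had 1 tumour per design.

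CTLA4 is a receptor that restrains T cells, and blocking it can let T cells act on a tumour outside the irradiated field. Interferons made by T cells and other leukocytes switch on a broad set of genes, among them guanylate-binding GTPases, the immunoproteasome and the MHC molecules that display peptides to T cells. A tumour sampled as bulk tissue also holds macrophages, stroma and vessels beside the melanoma cells, and a lower level of a cell type's genes in bulk tissue cannot separate fewer of those cells from less RNA per cell.

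The tumours carried the melanocyte genes that B16-F10 is known for. Pmel, a melanosome matrix protein, read 13.36 log2 units in the Res 177 tumour of the 12-array design against 13.26 ± 0.07 (SD, n = 4) in the controls. On the 2-array design it read 13.32 in Res 177 and 13.21 in control. Dct, a melanin-synthesis enzyme, lay 0.02 below the control mean (13.71 against 13.73), and Tyr, the tyrosinase that starts melanin synthesis, differed by -0.03 and -0.04 on the 12-array and 2-array designs. The list of melanocyte lineage and pigment genes had a median difference of 0.06 over 18 genes and 0.11 over 19 genes, beside 0.01 and 0.04 over all genes of each design. The list's mean on the 12-array design, relative to the control mean, was 0.21 in Res 177 against -0.06 to 0.05 in the controls. Of the 18 genes, 9 had the Res 177 tumour above all 4 controls and 3 below all 4, beside 22.5% and 17.5% of all genes. The signs of the differences of Tyr, Dct and Mlana on the 12-array design turned under some alternatives.

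On the 12-array design limma called 35 of 16635 genes higher in Res 177 than in control at an adjusted p under 0.05, which is 0.21% of the genes, and none lower (0.0%). At an unadjusted p under 0.05 there were 679 genes, of which 253 were lower, and the smallest limma adjusted p among lower genes was 0.173. The single Res 177 tumour has no spread of its own: the fit assumes that it varies like the control and Res 499 tumours. With the control and Res 177 arrays alone 56 genes were called, all higher, and 26 of the 35 were among them. Without the filter on dim genes limma called 101, and with a filter that kept the brighter 50% of genes it called 2. On the 2-array design, where 1 tumour a group allows no test, 182 of 14953 genes were at least 2-fold higher in Res 177 (1.22%) and 68 at least 2-fold lower (0.455%). With each array centred on its median that split was 150 higher and 91 lower.

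Of the 13507 genes measured above the level filter on both designs, 76 were at least 2-fold higher in Res 177 on both (0.563%), 3 were at least 2-fold lower on both (0.0222%) and none was past 2-fold in opposite directions. Taken singly, the 12-array design had 0.911% of these genes past 2-fold higher and 0.0296% past 2-fold lower, and the 2-array design 1.15% and 0.466%. At 1.5-fold, 1.52% were higher on both, 0.422% lower on both and 0.0296% opposite, and 62.3% of the genes had the same sign on both designs. The rule set the edge of the group: Ifi35 and Ccl2 lay just inside, with smaller differences of 1.0079 and 1.0014 log2 units, and Xaf1 and Mpeg1 just outside, at 0.9889 and 0.9871. Across genes the Res 177 differences of the designs had a Pearson r of 0.606 and a Spearman rho of 0.438, a description over genes that share arrays and are not independent replicates. Without the genes of the skin lists r was 0.6 over 13450 genes. With leukocyte content as a covariate of the 12-array fit it was 0.428. With the level filter of each design taken without its Res 177 tumour, 72 of the 76 remained, 6 of them in the skin lists. The 76 genes comprised 10 from lists of keratin, keratin-associated, epidermal and desmosome genes, 20 from interferon and MHC lists, 14 more from leukocyte and inflammation lists, 1 from another list and 31 in none of the 38 lists.

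**Figure D1:**
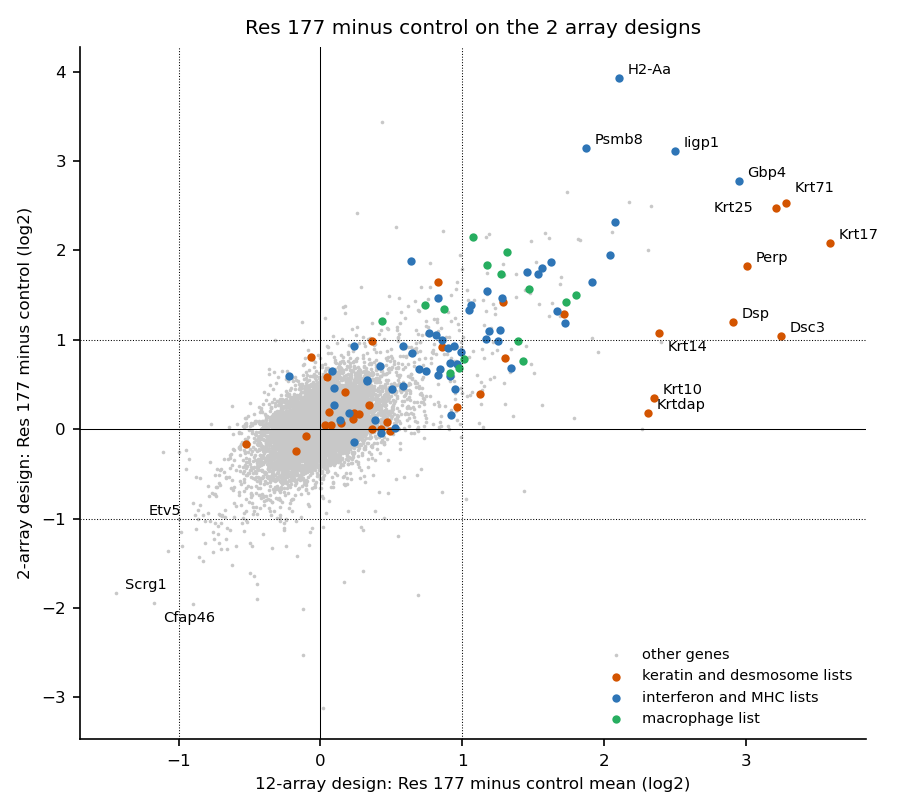
Each point is 1 of the 13507 genes measured on both designs, with Res 177 minus control on the 12-array design across (1 tumour against the mean of 4, log2) and on the 2-array design upward (1 tumour against 1, log2). Dotted lines mark 2-fold, colours mark gene lists, the upper right holds the 76 genes past 2-fold on both, and Krt10 and Krtdap lie far to the right but near 0 on the 2-array design.

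Keratins of the hair follicle and the proteins that join keratin filaments to desmosomes gave the largest differences that passed the test. Keratins pair as type I and type II chains, and Krt25, Krt27, Krt28, Krt71 and Krt73 belong to the inner root sheath, the layer that moulds the growing hair. Krt71 read 4.76, 5.14, 5.26 and 5.30 in the 4 controls of the 12-array design and 8.40 in the Res 177 tumour. It read 6.18 in the control and 8.71 in the Res 177 tumour of the 2-array design. The Res 177 tumour stood above every control on either design, with a difference of 3.29 (SE 0.19, limma adjusted p = 1.08e-06) and of 2.53.

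Krt25 read 4.68, 4.81, 4.81 and 4.99 in the controls and 8.03 in Res 177, a difference of 3.21 (SE 0.14, limma adjusted p = 8.48e-08), and 5.78 against 8.25 on the 2-array design. Krt17, a keratin of the outer root sheath that also appears in stressed epidermis, read 4.77, 4.68, 4.43 and 4.99 in the controls and 8.31 in Res 177. The difference was 3.59 (SE 0.23, limma adjusted p = 2.31e-06), and the 2-array pair read 6.23 and 8.31. These 3 keratins stood above every control on either design. Krt25, Krt17 and the cadherin Dsc3 were dim over the other tumours of the 12-array design, with means of 4.85, 4.80 and 4.76 over the 11 arrays against a filter level of 4.94, and passed the filter only through the Res 177 tumour. A filter on the other 11 arrays leaves these 3 genes out, and limma then called 32 genes, all among the 35. In the fit without a filter limma gave them adjusted p-values of 2.27e-08, 1.24e-06 and 2.27e-08. Krt73 rose by 1.72 (limma adjusted p = 0.00271) and lay 1.29 higher on the 2-array design, and Krt28 rose by 1.29 (limma adjusted p = 0.000256) and lay 1.43 higher.

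Tchh, the trichohyalin that hardens the inner root sheath, was below the level filter of the 12-array design. It read 3.57, 3.76, 3.81 and 4.69 in the controls and 9.02 in Res 177, a difference of 5.06 (limma adjusted p = 7.24e-07 in the fit without the filter), and 6.48 against 7.72 on the 2-array design. Krt27, also below that filter, read 4.75 to 4.92 in the controls and 6.32 in Res 177, and 6.80 against 8.18 on the 2-array design. Both stood above every control. Without the filter 101 genes were called, 44 of them in the skin lists. Of the 54 that the filter had left out, 49 were on the 2-array design, where 47 lay higher in Res 177 and 14 at least 2-fold.

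Of the 25 listed hair follicle keratins and trichohyalin, 20 were kept by the filter of the 12-array design. Of these 20, 7 passed the test, all higher, beside 0.21% of all genes. Krt17 and Krt25 are among the 7 and passed the filter only through the Res 177 tumour. The list's median difference was 0.48 on the 12-array design. It was 0.92 over 18 genes on the 2-array design, where 8 were at least 2-fold higher and none lower. The list's mean, relative to the control mean, was 0.96 in the Res 177 tumour against -0.06 to 0.11 in the controls and -0.06 to 0.07 in the Res 499 tumours. Among keratin-associated proteins, which cross-link keratin in the hair shaft, 1 of 17 passed the test: Krtap19-4, which read 7.33 to 7.63 in the controls and 8.62 in Res 177 (difference 1.16, limma adjusted p = 0.011) and lay 1.17 higher on the 2-array design. Of 31 such proteins on the 2-array design, 10 were at least 2-fold higher in Res 177, beside 1.22% of all genes of that design. The filter of that design uses the mean of both arrays, so a dim member can pass through the Res 177 tumour. Only 7 members were kept on both designs: 3 lay higher on both, 1 lower on both and 3 in opposite directions.

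Desmosomes are the junctions that bind keratinocytes together. Dsp, the desmoplakin that ties them to keratin filaments, read 5.18, 5.16, 5.19 and 5.50 in the controls and 8.17 in Res 177, a rise of 2.91 (SE 0.16, limma adjusted p = 1.05e-06). The 2-array pair read 6.29 and 7.49. Dsc3, a desmosomal cadherin, read 4.62 to 4.83 in the controls and 7.96 in Res 177, a difference of 3.25 (limma adjusted p = 8.48e-08), and 5.49 against 6.53 on the 2-array design. Perp, a tetraspan membrane protein of desmosomes, read 5.17 to 5.66 in the controls and 8.45 in Res 177, a rise of 3.01 (limma adjusted p = 1.92e-06), and 5.89 against 7.72. All 3 stood above every control on either design, with the smaller difference on the 2-array design. Of 12 desmosome and envelope genes kept by the filter 5 passed the test on the 12-array design, beside 0.21% of all genes. Dsc3 is among the 5 and passed the filter only through the Res 177 tumour. On the 2-array design 3 of 10 were past 2-fold, all higher, beside 1.22% of all genes. Sprr1a, a precursor of the cornified envelope that is on none of the lists, rose by 1.69 (limma adjusted p = 3.8e-05) and lay 1.63 higher on the 2-array design. Pkp1, a plakophilin, passed the test by little (difference 0.97, limma adjusted p = 0.0418) and lay 0.25 higher on the 2-array design. Its limma adjusted p was 0.052 to 0.118 without control replicate 2, 3 or 4 or without Res 499 replicate 1, 2, 5, 6 or 7, each left out alone.

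**Figure D2:**
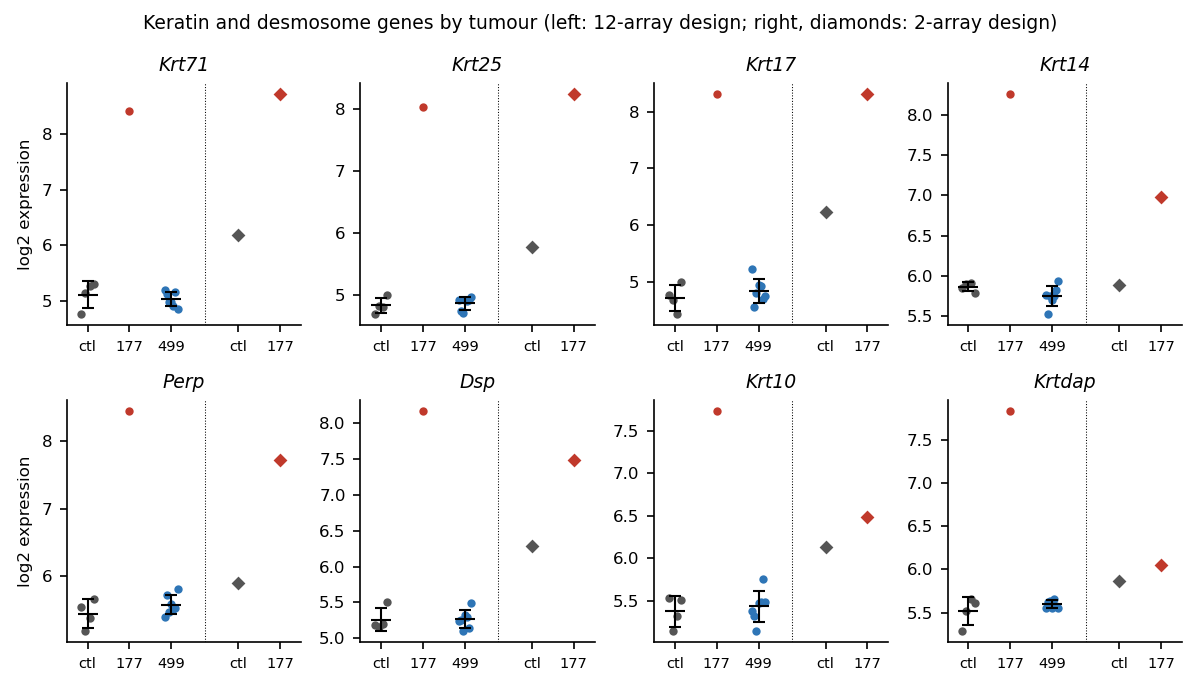
Log2 expression of 8 keratin and desmosome genes by tumour, with control (ctl, 4 tumours), Res 177 (1) and Res 499 (7) of the 12-array design to the left of the dotted line and control (1) and Res 177 (1) of the 2-array design to its right. Bars give mean and SD, and in every panel the Res 177 tumour of the 12-array design stands above all 11 other tumours of that design, while Krt10 and Krtdap of the 2-array pair differ by 0.35 and 0.18.

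The epidermal genes divided between the designs. Krt14, the basal keratinocyte keratin, read 5.79 to 5.92 in the controls and 8.26 in Res 177, a rise of 2.39 (limma adjusted p = 1.05e-06), and 5.89 against 6.97 on the 2-array design. Its partner Krt5 shares its probe set with Krt6a on the 12-array design and was not used there. It read 6.11 in control and 7.59 in Res 177 on the 2-array design. Krt10, the keratin of differentiating layers, read 5.14 to 5.54 in the controls and 7.73 in Res 177 on the 12-array design (difference 2.35, limma adjusted p = 3.8e-05), but 6.13 against 6.48 on the 2-array design. Krtdap, a secreted product of differentiating keratinocytes, rose by 2.31 (limma adjusted p = 1.05e-06) and lay only 0.18 higher on the 2-array design. Dmkn, the epidermal secreted protein dermokine, rose by 1.79 (limma adjusted p = 1.92e-06) against 0.12, and Krt79, a keratin of the sebaceous list, by 1.30 (limma adjusted p = 0.000647) against 0.28. Krt10, Krtdap, Dmkn and Krt79 stood above every control on the 12-array design, while on the 2-array design their differences were under 1.5-fold. Over the list, 14 of 14 epidermal genes lay higher on the 12-array design, 4 past the test, with a median of 0.50, and 9 of 12 on the 2-array design, with a median of 0.23. Of all genes, 53.3% and 58.5% lay higher on these designs. Between the designs the tumours, the probes and the number of controls all differ and cannot be told apart.

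The 35 called genes were looked up in the second pair of tumours, where 28 were above the filter, 6 were below it and 1 had no matching symbol. Of the 28, 27 lay higher in Res 177 on the 2-array design and 1 was equal. Their median difference was 0.68, beside 0.04 over all genes, and 11 were at least 2-fold higher. Over all 14953 genes of that design 58.5% lay higher in Res 177. The filter there uses the mean of both arrays, so a dim gene can pass it through the Res 177 tumour. Without that filter 31 of the 34 matched genes lay higher.

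The Res 177 tumour of the 12-array design was also set against the other resistant subline, in the same fit and with the same single Res 177 array. There limma called 39 genes higher in Res 177 than in Res 499 (0.234%) and none lower (0.0%), with 488 genes at an unadjusted p under 0.05. Krt71 ranged from 4.87 to 5.20 over the 7 Res 499 tumours with a median of 4.98, so that Res 177 was 3.37 higher (SE 0.18, limma adjusted p = 5.66e-07). All 10 skin-list genes past 2-fold on both designs stood above all 7 Res 499 tumours. With leukocyte content as a covariate their median difference from control was 3.03, beside 2.96 without it, and 10 of 10 stayed past 2-fold. The 10 were chosen for high Res 177 values on both designs, so these values describe the choice and do not test it. With filters taken without the Res 177 tumours, 6 of the 10 remained.

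Of the 66 genes of the 76 that lie outside the skin lists, 20 were on interferon and MHC lists and 14 more on leukocyte and inflammation lists, and none of these passed the test on the 12-array design. Gbp4, a guanylate-binding GTPase induced by interferon gamma, read 4.62, 4.0, 4.51 and 5.24 in the controls and 7.54 in Res 177. On the 2-array design it read 6.83 and 9.60. The Res 177 tumour was above every control, by 2.95 and 2.77, but the Res 499 tumours spread from 3.87 to 9.18 and the fit's SE was 1.60 (limma adjusted p = 1). Iigp1, a GTPase that attacks the vacuoles of intracellular parasites, read 6.86, 5.43, 6.42 and 7.31 in the controls and 9.00 in Res 177, and 6.44 against 9.55 on the 2-array design. Over the list of interferon-inducible GTPases 12 of 12 genes lay higher in Res 177 on the 12-array design and 7 of 7 on the 2-array design, with medians of 1.52 and 1.47. Of all genes, 53.3% and 58.5% lay higher on these designs. No member passed the test, and 5 of 7 were at least 2-fold higher on the 2-array design, beside 1.22% of all genes.

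Promoters of 3 interferon-induced genes are shown because members of their lists lay higher together on both designs and their upstream sequence holds a motif of that gene class, the interferon-stimulated response element, searched as GAAA, 2 bases of any kind and GAAA again, on both strands. Gbp3, a further guanylate-binding GTPase, lay 1.28 and 1.47 higher in Res 177 on the 12-array and 2-array designs, Gbp7 lay 1.92 and 1.64 higher, and Ifit1, which binds viral RNA ends, lay 0.91 and 0.74 higher. The sequences are the 250 bases before the gene start from RefSeq on build GRCm38.p6, all on the + strand, written 5′ to 3′ with the motif or its reverse complement in capitals: Gbp7 at chr3:142530086-142530335, Gbp3 at chr3:142559794-142560043 and Ifit1 at chr19:34640639-34640888.
Gbp7: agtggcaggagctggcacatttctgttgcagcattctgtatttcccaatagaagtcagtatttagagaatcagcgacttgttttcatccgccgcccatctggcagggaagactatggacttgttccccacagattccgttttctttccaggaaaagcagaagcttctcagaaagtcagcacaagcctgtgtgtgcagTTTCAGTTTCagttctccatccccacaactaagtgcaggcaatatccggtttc
Gbp3: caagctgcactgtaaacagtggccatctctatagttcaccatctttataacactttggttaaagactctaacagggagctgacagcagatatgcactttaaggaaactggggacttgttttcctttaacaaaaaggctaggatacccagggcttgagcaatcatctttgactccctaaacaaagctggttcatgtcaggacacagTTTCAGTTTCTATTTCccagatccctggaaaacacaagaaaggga
Ifit1: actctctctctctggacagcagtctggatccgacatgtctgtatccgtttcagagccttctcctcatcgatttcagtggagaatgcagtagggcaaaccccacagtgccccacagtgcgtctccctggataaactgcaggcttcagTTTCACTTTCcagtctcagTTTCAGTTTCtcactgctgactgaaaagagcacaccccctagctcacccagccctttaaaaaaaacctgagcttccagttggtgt
The match began 53 bases upstream of the start in Gbp7, 45 and 39 bases upstream in Gbp3, where the 2 matches overlap, and 104 and 85 bases upstream in Ifit1. The table holds 2 promoters of Gbp3, and the other has no match. Of the table's promoters, 10 of 11 of the GTPase list (90.91%), 11 of 32 of the interferon-stimulated list (34.38%) and 3 of 103 of the skin lists (2.91%) held the motif within 250 bases, beside 978 of 32851 of all promoters (2.98%). For the genes at least 2-fold higher on both designs it was 13 of 69 promoters (18.84%). The 3 promoters shown were picked for holding the motif. Those of Psmb8, Psmb9, Tap1, Oasl2 and H2-Q4, all past 2-fold on both designs, held no match. Isg15 and B2m, whose smaller differences are given below, had a match. A match describes the sequence, and binding was not measured.

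Among the other interferon-stimulated genes, Rtp4, a receptor-transporting protein with antiviral activity, read 6.77, 6.32, 6.53 and 7.23 in the controls and 8.27 in Res 177, and 7.32 against 9.12 on the 2-array design. The groups did not overlap, and the difference of 1.56 had a limma adjusted p of 0.806. Usp18, a protease that removes ISG15 and dampens interferon signalling, lay 1.67 and 1.33 higher. Isg15 itself, a ubiquitin-like modifier, read 6.30 in Res 177 and 6.05 to 6.20 in the controls of the 12-array design, a difference of 0.17, and shares its probe set with another gene on the 2-array design, where it was not used. Over the list, 31 of 32 genes lay higher on the 12-array design and 31 of 33 on the 2-array design, beside 53.3% and 58.5% of all genes. The medians were 0.80 and 0.67, and none passed the test. The share of all genes with the Res 177 tumour above all 4 controls was 22.5%, and for this list it was 28 of 32 genes.

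Antigen presentation genes lay higher in the same tumours. Psmb8, a catalytic subunit of the immunoproteasome, read 7.27, 7.05, 7.47 and 8.76 in the controls and 9.51 in Res 177 (difference 1.87, limma adjusted p = 1). On the 2-array design it read 6.50 and 9.65. Its partner subunit Psmb9 lay 2.04 and 1.95 higher, and Tap1, which carries peptides to MHC class I, 1.17 and 1.55 higher. B2m, the invariant chain of MHC class I, was near the top of the scale in every tumour, at 13.64 against 13.44 ± 0.11 (SD, n = 4), and 13.49 against 13.31 on the 2-array design. All 16 of 16 and 14 of 14 MHC class I genes lay higher, beside 53.3% and 58.5% of all genes, with medians of 0.89 and 0.96.

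H2-Aa, the alpha chain of MHC class II, read 7.62, 6.72, 6.85 and 8.38 in the controls and 9.50 in Res 177. On the 2-array design it read 6.71 and 10.64, the largest same-way difference of that design among the 76, at 15.2-fold. H2-Ab1, a beta chain, lay 2.08 and 2.32 higher. The MHC class II list had a median of 0.54 over 10 genes and of 1.87 over 7. Its members lay higher in 9 and 7 cases, beside 53.3% and 58.5% of all genes, and none passed the test. Cd274, the ligand of the PD-1 checkpoint receptor, read 7.77, 7.70, 7.91 and 8.29 in the controls and 8.66 in Res 177, and 8.37 against 9.53 on the 2-array design. The Res 177 tumour was above every control, and the 12-array difference of 0.75 did not pass (limma adjusted p = 1).

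**Figure D3:**
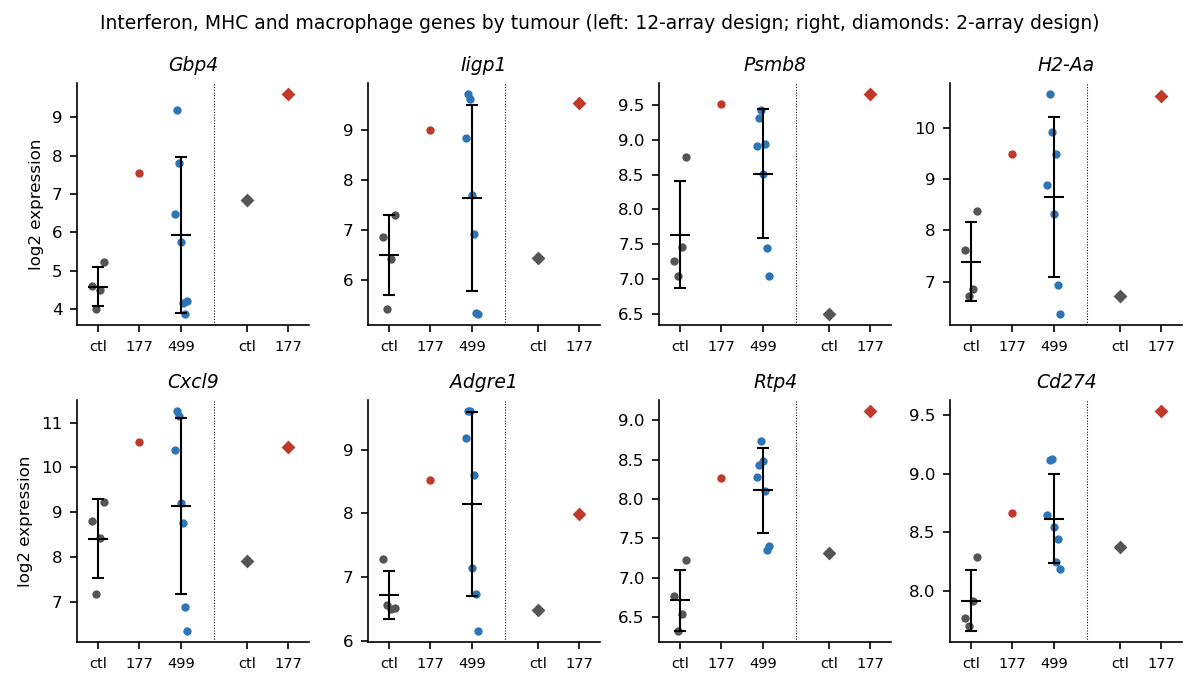
Log2 expression of 8 interferon, MHC and macrophage genes by tumour, laid out as control (4 tumours), Res 177 (1) and Res 499 (7) of the 12-array design left of the dotted line and control (1) and Res 177 (1) of the 2-array design right of it, with mean and SD bars. Res 177 stands above the controls in every panel, while the Res 499 tumours spread on both sides of the Res 177 value, except for Psmb8, where the highest Res 499 tumour lies below it.

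Macrophage genes moved beside these groups. Adgre1, an adhesion receptor that marks mouse macrophages, read 7.28, 6.57, 6.50 and 6.52 in the controls and 8.52 in Res 177, and 6.48 against 7.98 on the 2-array design. Fcgr4, an activating receptor for antibody, lay 2.05 and 2.21 higher, and C1qb, a chain of complement C1q, 1.32 and 1.98 higher. In the macrophage and monocyte list 20 of 20 and 15 of 15 genes above the filters lay higher, beside 53.3% and 58.5% of all genes. The medians were 1.01 and 1.39, and none passed the test. Relative to the control mean, the list's mean was 1.06 in Res 177, -0.17 to 0.38 in the controls and -0.37 to 1.98 in Res 499. Among chemokines, Cxcl9, a ligand of the T cell receptor CXCR3, read 8.79, 7.17, 8.43 and 9.23 in the controls and 10.58 in Res 177, and 7.92 against 10.45 on the 2-array design.

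As a list, T cell genes had smaller differences, at dimmer signal. Their list mean was 5.51 to 5.75 in the controls of the 12-array design, near the array medians of 5.7 to 5.8. That of macrophage genes was 6.74 to 7.29, so the sizes of the differences cannot be compared directly. The T cell list had medians of 0.24 over 11 genes and 0.12 over 8, and Cd8a, the co-receptor of cytotoxic T cells, read 5.58 in Res 177 against 5.13 to 5.71 in the controls and 6.16 against 6.06 on the 2-array design. The Res 177 tumour of the 12-array design lay within the control range for Cd8a, Cd3d, Cd4, Cd2 and Cd5, and below it for Cd28. It stood above every control for 5 of the 11 genes, beside 22.5% of all genes. Among the 5 were the T cell receptor signalling chains Cd3e, at 6.48 against 5.50 to 6.01, and Cd3g, at 6.65 against 4.78 to 5.23. The list's mean, relative to the control mean, was 0.38 in Res 177 against -0.08 to 0.16 in the controls, and no member passed the test.

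Leukocyte content, the mean of 5 leukocyte genes, was higher in Res 177 on either design. It read 7.05 against 5.90 to 6.36 in the controls and 5.75 to 7.84 in Res 499, and 7.76 against 6.63 on the 2-array design. With this mean as a covariate of the 12-array fit, the 66 same-way genes outside the skin lists had a median difference of 0.27 in place of 1.47, and 9 of the 66 remained past 2-fold. The GTPase median became 0.32, that of the interferon-stimulated list 0.34, that of MHC class I 0.22, that of MHC class II 0.12 and that of macrophage genes -0.03, and the estimates for C1qb, Isg15 and Cd8a turned to -0.11, -0.22 and -0.05. Cd53 is both 1 of the 5 leukocyte genes and 1 of the 66, so its own fall is partly built in. The covariate varied most among the Res 499 tumours, which therefore weigh most in its slope. The Res 177 tumour lay within the range of the 7 Res 499 tumours for 63 of these 66 genes. The same share over all genes is not given, and the range could be wide, as for Gbp4 (3.87 to 9.18). The count therefore does not show that the sublines were alike in these genes. Without the Res 499 arrays in the fit, Fcgr4, Ccl8, Cd53, Mmp13 and Plau passed the test. Mmp13, a collagenase, read 5.73, 5.12, 5.79 and 5.69 in the controls, 7.89 in Res 177 and 5.21 to 7.47 in Res 499, with a difference of 2.31 (limma adjusted p = 0.529 with all 12 arrays), and 6.36 against 8.36 on the 2-array design. It passed also without Res 499 replicate 1 (limma adjusted p = 0.03).

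**Figure D4:**
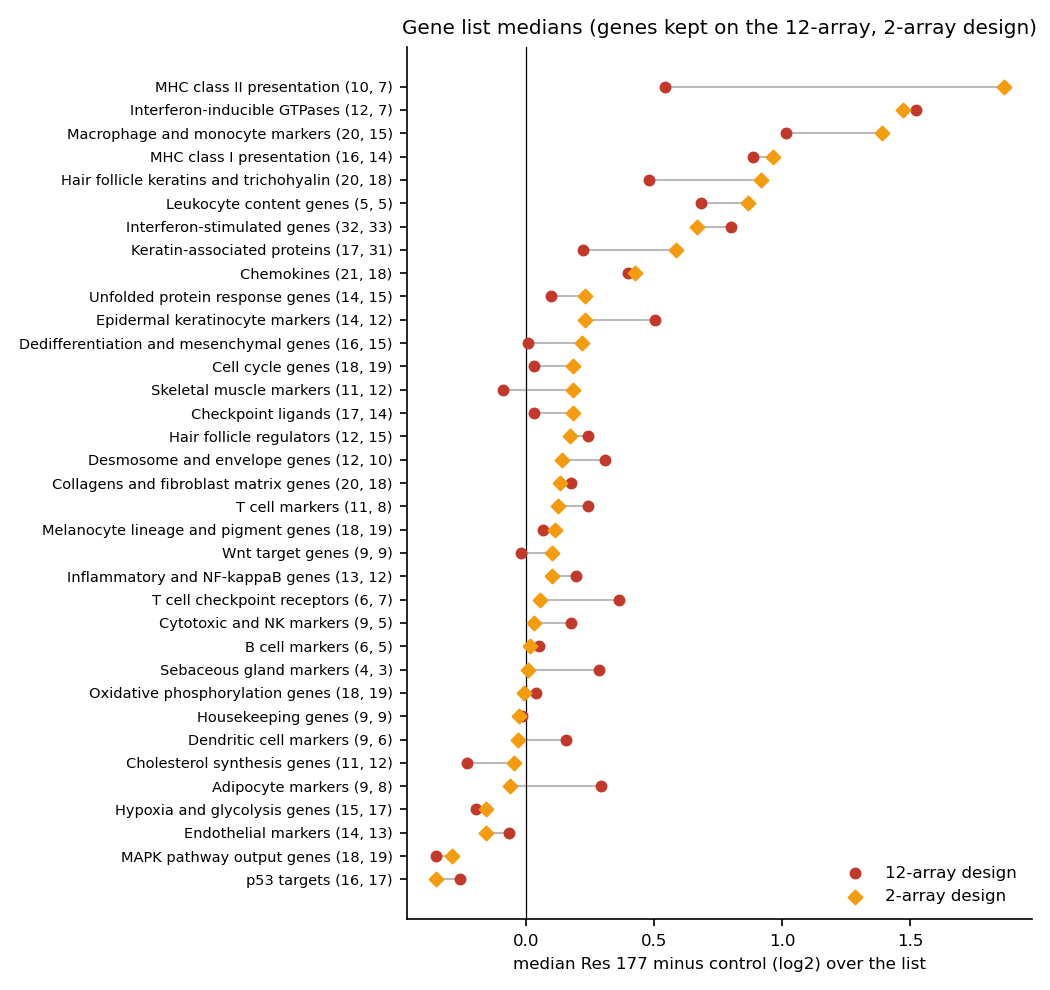
Median Res 177 minus control difference (log2) of each gene list on the 12-array design (red circles, 1 tumour against 4) and the 2-array design (orange diamonds, 1 against 1), with the number of genes kept on each in brackets. The MHC class II, GTPase and macrophage lists have the highest medians of the 2-array design, and the p53, MAPK and hypoxia lists lie left of 0 on both designs.

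The lower genes were fewer and none passed the test with all arrays. Scrg1, a small secreted protein first known from scrapie-infected brain and cartilage, read 8.65, 7.73, 8.01 and 7.23 in the controls and 6.46 in Res 177, and 8.83 against 7.0 on the 2-array design. Cfap46, a protein of motile cilia, read 8.21, 7.96, 8.10 and 7.09 in the controls and 6.67 in Res 177, and 8.35 against 6.41 on the 2-array design. For both genes Res 177 was below every control. Adssl1, the muscle form of adenylosuccinate synthase, read 9.45, 9.62, 9.84 and 8.19 in the controls and 8.20 in Res 177, so that 1 control was as low, and 10.35 against 8.99 on the 2-array design. These 3 were the genes at least 2-fold lower on both designs, with 12-array differences of -1.44, -1.17 and -1.08 and limma adjusted p-values of 1, 0.694 and 1. Control replicate 5 was the lowest control for each of them. Without it 8 genes were at least 2-fold lower on both designs, and Cfap46 fell by 1.42 with a limma adjusted p of 0.0231.

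Further genes were lower by somewhat less. Erbb3, the neuregulin receptor of neural crest cells, read 10.28, 10.54, 10.87 and 9.89 in the controls and 9.39 in Res 177, and 10.86 against 9.85 on the 2-array design. Ncam1, a neural cell adhesion molecule, lay 0.99 below the control mean (8.13 to 8.48 in the controls, 7.33 in Res 177, limma adjusted p = 0.377), and read 8.79 against 7.65 on the 2-array design. Xylt1, which starts the sugar chains of proteoglycans, differed by -0.97 and -1.30, and Slc12a2, a sodium-potassium-chloride cotransporter, by -0.90 and -1.95. For Erbb3, Ncam1 and Xylt1 the Res 177 tumour was below every control, whereas the lowest Slc12a2 control read 9.05 beside 9.11 in Res 177.

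Outputs of the MAPK pathway, which drives melanocyte growth, lay lower as a group. Etv5, an ETS transcription factor induced by ERK signalling, read 9.41, 9.05, 9.46 and 9.28 in the controls and 8.44 in Res 177, and 10.88 against 9.88 on the 2-array design. Spry4, a feedback inhibitor of the same pathway, differed by -0.66 and -1.11. Of the list, 1 of 18 genes lay higher on the 12-array design and 5 of 19 on the 2-array design, beside 53.3% and 58.5% of all genes. Of the 18 measured on both, 14 lay lower on both, and the medians were -0.36 and -0.29. Relative to the control mean, the list's mean on the 12-array design was -0.37 in Res 177. It was -0.10 to 0.09 in the controls and -0.39 to -0.16 in the Res 499 tumours. No member passed the test.

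Targets of p53, the stress-activated tumour suppressor, showed a like pattern. Zmat3, an RNA-binding target, read 9.79, 9.78, 9.98 and 9.50 in the controls and 9.04 in Res 177, and 10.48 against 9.32 on the 2-array design. Cdkn1a, the cell cycle inhibitor p21, read 12.11, 12.26, 12.36 and 11.88 in the controls and 11.16 in Res 177 (difference -0.99, limma adjusted p = 0.377). Its probe set on the 2-array design is shared with another gene and was not used. In both genes the Res 177 tumour was below every control. Over the list, 3 of 16 and 3 of 17 genes lay higher, beside 53.3% and 58.5% of all genes. Of the 15 on both designs, 11 lay lower on both, and the medians were -0.26 and -0.35. The p53 list's mean on the 12-array design was -0.29 in Res 177, little below the controls at -0.21 to 0.14. The Res 499 tumours lay at -0.39 to -0.24. Hypoxia and glycolysis genes had medians of -0.20 and -0.16, with 12 of 15 lower on both designs. The mean of the hypoxia list on the 12-array design was -0.19 in Res 177, within the control range of -0.22 to 0.18. Of all genes, 17.5% had the Res 177 tumour below all 4 controls, and 12 of 18 MAPK, 8 of 16 p53 and 7 of 15 hypoxia genes did. Mki67, a marker of dividing cells, differed by -0.06 and -0.04.

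The 2-array pair of tumours shares no array with the Res 499 tumours or their controls, and the genes called in Res 499 were looked up in it. On the 12-array design limma called 24 genes higher (0.144%) and 35 lower (0.21%) in Res 499 than in control, and 58 of these 59 were above the filter of the 2-array design. There 23 of 23 higher genes lay higher in Res 177 and 34 of 35 lower genes lay lower, with medians of 0.54 and -0.64. Over all 13507 genes the share with the same sign was 61.2%. The exception was Gm5784, named after its value was seen, which lay 0.16 higher. Of the called genes 6 were past 2-fold higher and 9 past 2-fold lower in Res 177. The number of genes called in Res 499 varied with the tumours in the fit, and the share with the same sign was 6 of 6 genes without control replicate 4 and 166 of 185 without Res 499 replicate 2.

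Among the higher genes, Plau, the urokinase that activates plasmin, read 6.94 in control and 8.69 in Res 177 on the 2-array design, and differed by 1.04 in Res 499 (limma adjusted p = 0.0438). Gxylt2, a xylosyltransferase that modifies Notch, read 8.74 against 10.48, with 1.37 in Res 499 (limma adjusted p = 0.0379). Mcoln3, a mucolipin ion channel of endosomes and lysosomes, read 9.75 against 10.96, with 0.95 in Res 499 (limma adjusted p = 0.00445). Among the lower genes, Lgi4, a secreted protein of Schwann cell development, read 8.14 against 6.71, with -1.07 in Res 499 (limma adjusted p = 0.00636), and Sema6a, a transmembrane semaphorin, read 9.70 against 8.43, with -0.89 (limma adjusted p = 0.0482). On the 12-array design the genes were called against the same 4 controls, so the values there are a description. The Res 177 tumour stood above all 4 controls for 21 of the 23 higher genes. It stood below all 4 for 31 of the 35 lower genes. Over all genes the shares were 22.5% above and 17.5% below. None of the 59 genes was called between Res 177 and Res 499 in the limma fit. A p that misses the threshold does not show that the sublines were alike: for Etv5 the difference was 0.29 with an SE of 0.22.

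**Figure D5:**
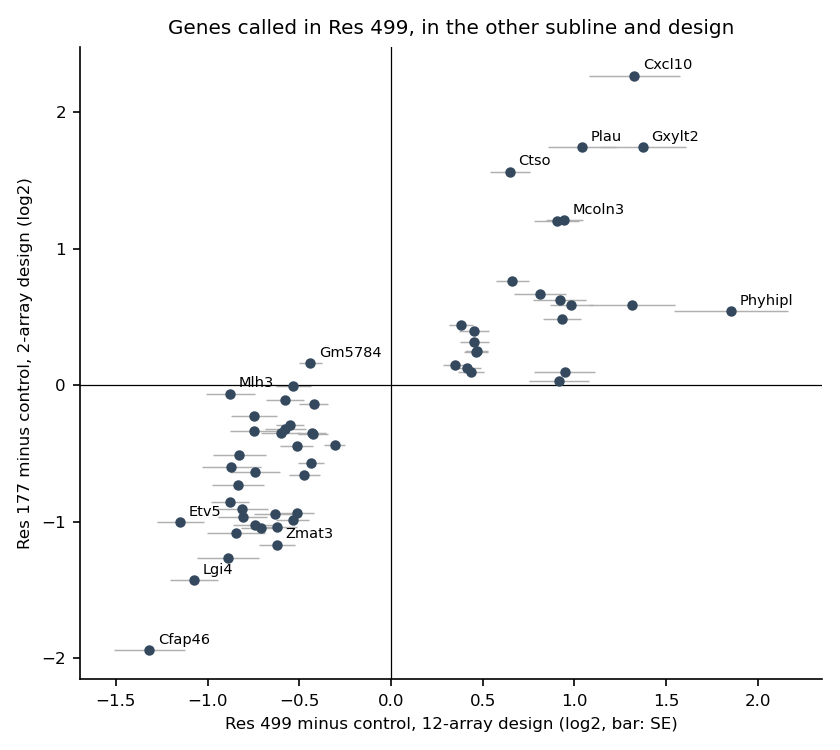
Each of the 58 points is a gene that limma called between Res 499 and control tumours on the 12-array design and that was measured on the 2-array design, with the Res 499 difference across (log2, bar is the SE, 7 tumours against 4) and the Res 177 difference of the 2-array design upward (log2, 1 tumour against 1, no error available). The points lie in the upper right and lower left except Gm5784, at 0.16.

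Some genes were past 2-fold on 1 design and within 1.5-fold on the other: 20 were higher on the 12-array design only, 4 of them in the skin lists, and 36 on the 2-array design only. Among the latter were Btn2a2, a butyrophilin that read 5.53 in control and 8.97 in Res 177 but 4.59 to 5.67 against 5.47 on the 12-array design, and Myl1, a skeletal muscle myosin light chain that read 5.47 against 7.89 but 5.82 to 6.35 against 6.38. Acta1, the actin of skeletal muscle, read 7.32 against 8.32 on the 2-array design and 6.57 to 7.95 against 6.72 on the 12-array design. In the skeletal muscle list 11 of 12 genes lay higher in Res 177 on the 2-array design and 4 of 11 on the 12-array design. Of all genes, 58.5% and 53.3% did. Cxcl10, a further ligand of CXCR3, read 9.09 against 11.35 on the 2-array design, whereas on the 12-array design Res 177 read 8.78, within the control range of 7.61 to 8.90.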

How the data were processed

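RNA of bulk tumours was measured on 2 Affymetrix array designs. Per the submitters' processing notes the authors used RMA in oligo, and the deposited values are log2 expression per probe set. The sources used here name no version, genome build or annotation. Every per-sample column was used. Symbols came from the platform annotation: of 41345 probe sets on the 12-array design 23521 had 1 symbol, 1814 several and 16010 none, and of 35556 on the 2-array design 21789, 1621 and 12146. Each gene took its probe set of highest mean, giving 22180 and 19938 genes. The lowest 25% by mean were left out, 5545 and 4985 genes, and 16635 and 14953 were kept.

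Genes of the 12-array design were tested with limma 3.58.1 in R 4.3.3 (lmFit and eBayes, 1 mean per subline, all 12 arrays, Benjamini-Hochberg over all genes tested, threshold 0.05). The 2-array design has 1 tumour a group and no test. An exact permutation of 1 tumour against 4 could not go below a one-sided p of 0.2. The number of arrays limits the precision, and array medians were 5.7 to 5.8 and 6.69 to 6.7. Replicates carry no number in the labels and were numbered in accession order, the 2-array pair being replicate 1. Tested on simulated data for Res 177 minus control over 16635 genes, the fit recovered 67 of 100 genes with a log2 change of 1 and 94 of 100 with a change of 3, and called 12 unchanged genes. Every simulated array, Res 177 included, was given independent normal noise with the fit's own spread for each gene. The simulation thus assumes that Res 177 varies like the other tumours and cannot test that assumption.

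Named genes were the 12 highest and 12 lowest by the smaller of the 2 same-sign differences, the 10 largest called in each direction, up to 4 of each list, and 18 genes given in advance. The rule passed over antigen receptor segments, small RNAs, predicted models, and receptors of smell and taste. Genes outside this rule (Acta1, Btn2a2, Cxcl10, Dmkn, Gm5784, Gxylt2, Krt27, Krt28, Mcoln3, Mgll, Plau, Sema6a, Sprr1a, Tchh) were chosen after their values were seen. The tumours, lists and tests were chosen with earlier results of these data known. RefSeq promoters were searched for 1 motif. Alternatives changed the filter, the probe set rule, the normalization, the prior, the threshold, the covariate and the arrays in the fit.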

Additional observations from a re-analysis of the deposited data

Results flagged for a closer look

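In some genes 1 control tumour of the 12-array design lay far from the other 3. Examples are Dsp in control replicate 5 (5.50), Adgre1 in control replicate 2 (7.28), Mmp13 in control replicate 3 (5.12) and Siglech in control replicate 3 (5.20). Chance alone flags about 5% of groups of 4, and these examples are not a count to set against that share.

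The Res 177 tumour differed from the Res 499 tumours, by limma's test of that difference within the 12-array design, in keratins, desmosome genes and other skin genes. Among the hair follicle genes the differences were 3.37 for Krt71, 3.18 for Krt25, 3.47 for Krt17, 1.74 for Krt73, 1.32 for Krt28 and 1.13 for Krtap19-4. Among the desmosome and envelope genes they were 2.87 for Perp, 2.90 for Dsp, 3.17 for Dsc3, 0.93 for Pkp1 and 1.86 for Sprr1a. Among the epidermal and sebaceous genes they were 2.50 for Krt14, 2.30 for Krt10, 2.23 for Krtdap, 1.76 for Spink5, 1.74 for Dmkn and 1.35 for Krt79. Spink5, a protease inhibitor of the skin barrier, rose by 1.81 against control on the 12-array design and was below the filter on the 2-array design, where it read 5.64 and 5.72.

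Of 9954 probe sets without exactly 1 gene symbol, limma called 5 higher in Res 177 than in control and none lower, with a largest difference of 5.30 and a smallest adjusted p of 1.66e-07. They were left out of every other comparison.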

How the results depend on the processing

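The count of 35 genes called against control became 101 without the filter, 56 with the control and Res 177 arrays alone and 2 when the filter took 50% of genes, and ranged from 32 to 37 with 1 array left out. Against Res 499 the count of 39 became 113 without the filter and 2 under the 50% filter, and ranged from 33 to 43. Genes of dim signal enter or leave the test with the filter. The filter taken over the arrays other than Res 177 was added after seeing the data and gave 32 and 35 called genes. On the 2-array design the higher count of 182 became 120 under the 50% filter, 539 at 1.5-fold and 63 at 3-fold, and the lower count of 68 became 249 and 13. The same-way higher count of 76 became 45 under the 50% filter, 205 at 1.5-fold, 22 at 3-fold and 22 with leukocyte content as a covariate, and ranged from 68 to 81 with 1 control left out. The same-way lower count of 3 became 5 with quantile normalization, 6 with median centring, 6 with the covariate, 57 at 1.5-fold and 0 at 3-fold, and ranged from 2 to 8 with 1 control left out, the 8 arising without control replicate 5. Opposite genes numbered 4 at 1.5-fold and 0 to 1 with 1 control left out, the 1 arising without control replicate 2. The cause of these changes was not tested. The covariate for same-way genes and list medians was added after seeing the data.

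Estimates turned sign with the covariate for Isg15 (-0.22), C1qb (-0.11), Cd8a (-0.0507) and Tyr (0.0246). With quantile normalization Dct (0.0257) and Mlana (0.0028) turned. With 1 control left out Tyr ranged up to 0.0615, turning without control replicates 2 and 3, and Mlana ranged from -0.0503 to 0.0262, turning without control replicates 3 and 5. Pkp1 lost its call in 10 alternatives. Over 98 named genes, 1900 of 1930 comparisons on the 12-array design kept direction and side of the threshold. Called genes of the Res 499 comparison had the same sign in Res 177 in 89.7 to 100% with 1 array left out. No paired analysis was possible because the labels carry no replicate numbers.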

Other observations

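Lists of skin and stromal genes outside the keratins differed among themselves. In the sebaceous gland list 4 of 4 genes lay higher in Res 177 on the 12-array design, 1 of them past the limma test, with a mean of 0.50 relative to the controls, which ranged from -0.05 to 0.11. In the 2-array pair 2 of 3 lay higher, with a median of 0.0070. Of all genes, 53.3% lay higher on the 12-array design and 58.5% on the 2-array design. The adipocyte list had medians of 0.29 on the 12-array design and -0.06 on the 2-array design, the endothelial list -0.07 and -0.16, and the collagen and fibroblast list 0.17 and 0.13. No member of the adipocyte, endothelial and collagen lists passed the limma test on the 12-array design. Dcn, a small proteoglycan of connective tissue, read 8.44, 6.97, 7.76 and 7.54 in the controls and 10.07 in Res 177 on the 12-array design, and 7.07 against 8.04 on the 2-array design.

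Some pigment genes differed by more than the small median of their list. Gpr143, a receptor of the melanosome membrane, read 8.78, 8.93, 8.80 and 8.71 in the controls and 9.61 in Res 177, and 9.67 against 10.72 on the 2-array design, and Kit, the stem cell factor receptor, differed by 0.55 and 1.47. Mgll, a lipase of monoglycerides, read 7.15 to 8.14 in the controls and 8.96 in Res 177, and 9.19 against 10.67 on the 2-array design.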
